A study of Sus scrofa with 30 samples.

Results

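Cytokines, chemokines and their receptors were followed across teat tissue of pigs with and without inverted teats. The members were the genes whose platform symbol begins with CCL, CCR, CXCL, CXCR, IL and a number, TNFSF, TNFRSF or IFN, together with TNF itself. Where a gene had several probe sets, the one with the highest mean level was read. This gave 73 genes, carried by 85 probe sets, out of 6765 genes with 1 symbol on the array. They comprised 19 chemokines, 7 chemokine receptors, 18 interleukins, 13 interleukin receptors and binding proteins, 4 TNF superfamily ligands, 5 TNF receptors and 7 interferons or interferon receptors.

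The study hybridised 30 tissue pieces from 10 peripubertal pigs of commercial dam lines, collected at slaughter at a mean end weight of 110 kg, to 1 Affymetrix Porcine Genome Array each. Every animal gave epithelial and mesenchymal teat tissue. Normal teats of 5 non-affected animals (numbers 950, 957, 1040, 1058 and 1109), normal teats of 5 affected animals (963, 964, 1037, 1059 and 1103) and the inverted teats of these latter animals formed 3 groups of 5 arrays in each tissue. A teat had been classed as normal or inverted by inspection and palpation, and an animal as affected when it carried inverted teats. Each status group held 1 German Landrace pig, 1 Pietrain x (Large White x German Landrace) pig and 3 Large White x German Landrace pigs, and the labels name no treatment. The teat is a cone of skin, gland ducts, connective tissue, vessels and smooth muscle, and each piece is a bulk mixture in which fewer cells of a type and less RNA per cell cannot be told apart.

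Chemokines are small secreted proteins that bind G protein-coupled receptors on leukocytes and set where those cells go. Interleukins, TNF superfamily ligands and interferons bind other receptor classes, which signal mainly through JAK kinases and STAT proteins or through adaptors that activate NF-kB. In skin and mammary gland, resident epithelial, stromal and lymphatic cells make a standing set of these ligands, such as CXCL12, CXCL14, CCL21, CCL27 and CCL28, while TNF, IL6, IL1B and CXCL8 are made in quantity mostly when the tissue is inflamed.

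The values were log2 probe set levels, on which a difference of 1 is a 2-fold change. A level was called above background when it exceeded the 30th percentile of all probe sets on its array, which lay between 4.49 and 4.84. By this measure 37 of the 73 members (50.7%) were above background on all 30 arrays, 23 (31.5%) on 1 to 29 arrays and 13 (17.8%) on none. Among all 6765 genes the corresponding shares were 73.6%, 22.0% and 4.49%. A level below the percentile marks a weak signal and not the absence of the RNA, and levels of different probe sets were not set against each other.

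**Figure D1:**
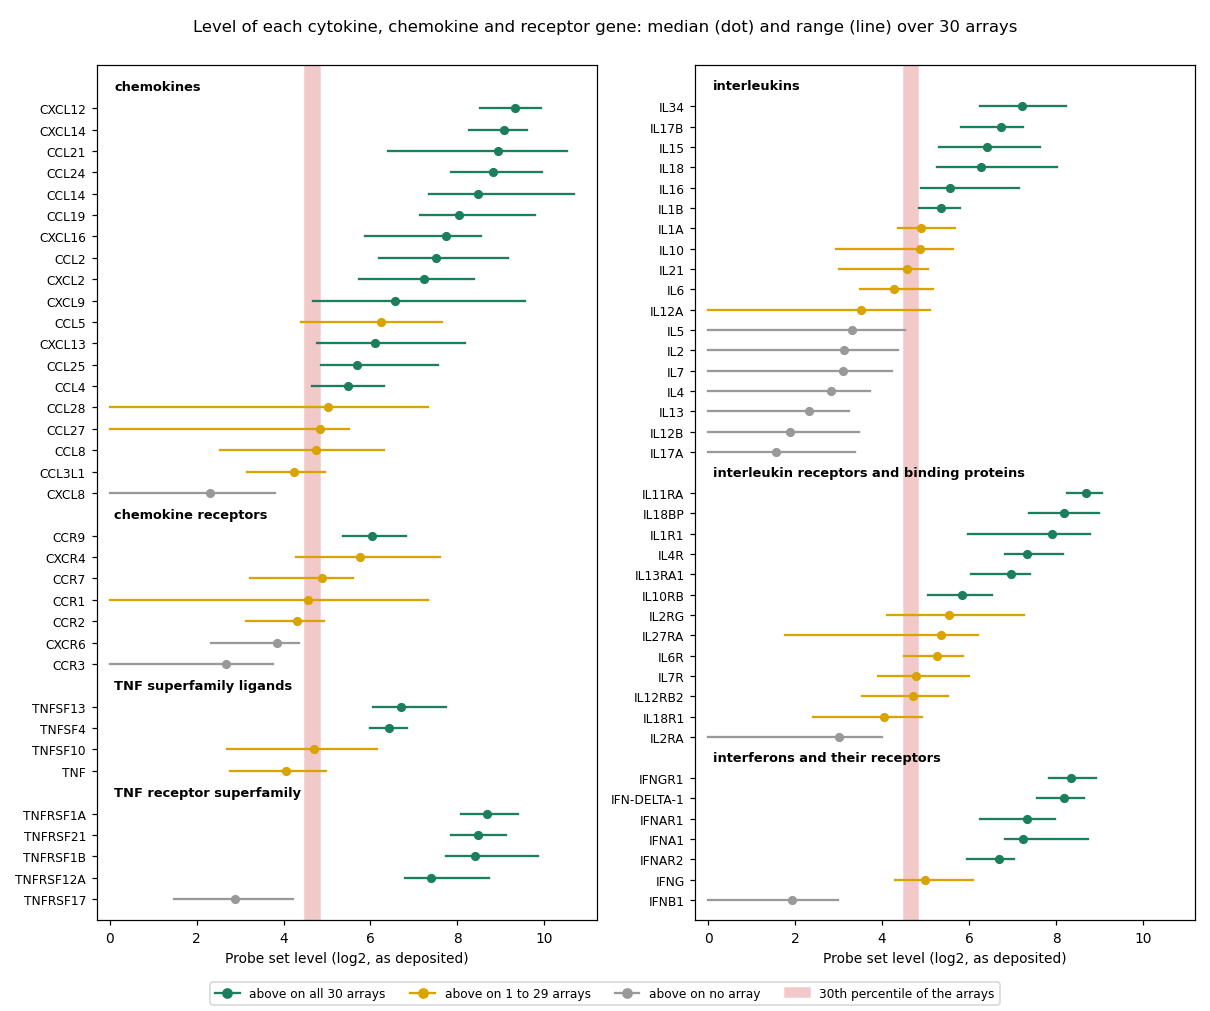
Each line spans the lowest to the highest log2 level of 1 gene over 30 arrays and the dot is its median; colour gives the number of arrays above the 30th percentile, and the shaded band is the range of that percentile over the arrays (4.49 to 4.84). Green genes (37) exceed their own array's percentile on every array, though CCL4, CXCL9 and CXCL13 reach into the band, and grey genes (13) never rise above their array's percentile.

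Of the 37 members above background on all 30 arrays, 13 were chemokines, which is 13 of 19 chemokines (68.4%) beside 73.6% of all genes. They were CXCL12, CXCL14, CCL21, CCL24, CCL14, CCL19, CXCL16, CCL2, CXCL2, CXCL9, CXCL13, CCL25 and CCL4. CXCL12, a stromal chemokine that retains CXCR4-bearing cells, ran from 8.51 to 9.92 over the 30 arrays. CXCL14, made by epithelium and fibroblasts, ran from 8.25 to 9.60. Their group means differed little, from 9.15 to 9.45 for CXCL12 and from 8.75 to 9.21 for CXCL14. The other CXCL12 probe set correlated with the chosen one at r = 0.10. In normal teats it was higher in epithelial than in mesenchymal tissue by 0.54 (limma adjusted p = 0.0524), against 0.22 for the chosen one. CXCL8, the neutrophil chemokine, was above background on no array and was listed between 0.00 and 3.80.

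Chemokine receptors, which sit on leukocytes, were detected less evenly. CCR9, the receptor of CCL25, was above background on all 30 arrays and CXCR4 on 29. CCR7, the receptor of CCL19 and CCL21, passed on 20 arrays, CCR1 on 14 and CCR2 on 7, and CXCR6 and CCR3 passed on none.

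Among interleukins, IL34, IL17B, IL15, IL18, IL16 and IL1B were above background on all arrays, IL1A on 23, IL10 on 19, IL21 on 12, IL6 on 4 and IL12A on 3. The other IL1B probe set was above background on 12 arrays (r = -0.006 with the chosen one) and the other IL1A probe set on 0 (r = -0.22). Other IL17B probe sets were above background on 29 and 27 arrays (r = -0.13 and 0.35). The cytokines of helper T cells IL2, IL4, IL5, IL13 and IL17A, as well as IL7 and IL12B, were above background on none. IL34, an alternative ligand of the macrophage colony-stimulating factor receptor, had group means from 6.85 to 7.36. The group means of IL17B ran from 6.50 to 6.94, those of IL16 from 5.42 to 5.90 and those of IL1B from 5.24 to 5.49. IL6 was above background only on mesenchymal arrays, 4 of 15 against 0 of 15 epithelial arrays, with group means from 4.01 to 4.61; it was too low in too few arrays to enter a test.

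Of the interleukin receptors and binding proteins 6 of 13 (46.2%) were above background on every array, beside 6 of 18 interleukins (33.3%); the difference between the classes was not tested. IL11RA, IL18BP (a secreted inhibitor of IL18), IL1R1, IL4R, IL13RA1 and IL10RB were those 6; IL6R was above background on 29 arrays, IL2RG on 27, IL27RA on 25, IL7R on 18, IL12RB2 on 17, IL18R1 on 2 and IL2RA on none. IL11RA was among the steadiest, at 8.25 to 9.05 over all arrays. The group means of IL12RB2 ran from 4.42 to 4.91.

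In the TNF superfamily, the ligands TNFSF13 and TNFSF4 were above background on all arrays, TNFSF10 on 15 and TNF on 1. TNF was listed between 2.76 and 4.98, with group means from 3.64 to 4.44. Its receptors TNFRSF1A and TNFRSF1B, and TNFRSF21 and TNFRSF12A, were above background on all 30 arrays, while the plasma cell receptor TNFRSF17 was on none. TNFSF13, a ligand that sustains plasma cells, ran from 6.06 to 7.75 and TNFSF4 from 5.99 to 6.85.

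Of the interferon receptors, the gamma receptor chain IFNGR1 and both chains of the type I receptor, IFNAR1 and IFNAR2, exceeded the percentile on all 30 arrays. So did IFNA1 and IFN-DELTA-1, 2 type I interferon genes that belong to families of near-identical copies, so that each probe set may read relatives as well. IFN-DELTA-1 ran from 7.56 to 8.65 and IFNGR1 from 7.84 to 8.92. IFNG was above background on 25 arrays, with group means from 4.86 to 5.17, and IFNB1 on none, at 0.00 to 2.99.

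The tissue label was checked against marker genes before the tissues were compared. The mean log2 level of 6 luminal epithelium genes (KRT8, KRT18, KRT19, CDH1, EPCAM and ELF3) was 8.66 to 10.02 in the 10 epithelial pieces of normal teats, with a median of 9.75. Mesenchymal pieces of normal teats fell apart in this respect: those of animals 950, 957, 963 and 964 stood at 8.92, 10.05, 9.99 and 10.08, inside or near the epithelial range, and the other 6 at 2.96 to 6.60. Mesenchymal pieces of inverted teats stood at 8.37 to 10.51 except that of animal 1037, at 3.68, and the epithelial piece of the inverted teat of animal 1103 stood at only 5.69. Skeletal muscle genes (9 tested) and adipocyte genes (6 tested) were all lower in epithelial than in mesenchymal pieces of normal teats, with median differences of -6.44 and -2.39. Single pieces overlapped. The skeletal muscle mean reached 9.25 in the epithelial piece of animal 963 and was only 3.05 in the mesenchymal piece of animal 1040. Fibroblast genes (6 tested) went the other way, with a median difference of 0.47 and 1 called, beside 33.5% of all probe sets. Of 7 genes carried by all leukocytes and 10 macrophage and dendritic cell genes, none differed between the tissues in normal teats by limma (adjusted p under 0.05), and their median differences were -0.19 and -0.22. The highest leukocyte mean of all arrays, 8.52, was that of the mesenchymal piece of the normal teat of animal 1103, against 6.18 to 7.47 on the other 29. For some of the results below, a fit without animals that gave such pieces is given as well.

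In normal teats, 13 members differed between epithelial and mesenchymal tissue, 5 higher and 8 lower in epithelial tissue. IFNA1, IL15, IL18BP, TNFRSF1B, IL10RB, CXCR4, IL2RG and IL6R were lower in epithelial tissue, and CCL21, CCL27, TNFSF10, IL27RA and CCR9 were higher. The comparison, fitted with limma on 20 arrays with affection status as a covariate, tested 55 of the 73 members; the other 18 exceeded background on too few arrays to be tested. The 13 calls were 23.6% of the members tested, beside 33.5% of all 18286 probe sets tested, so the members did not change more often than the array as a whole. The median difference was -0.05 over the 55 members and -0.06 over all probe sets.

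**Figure D2:**
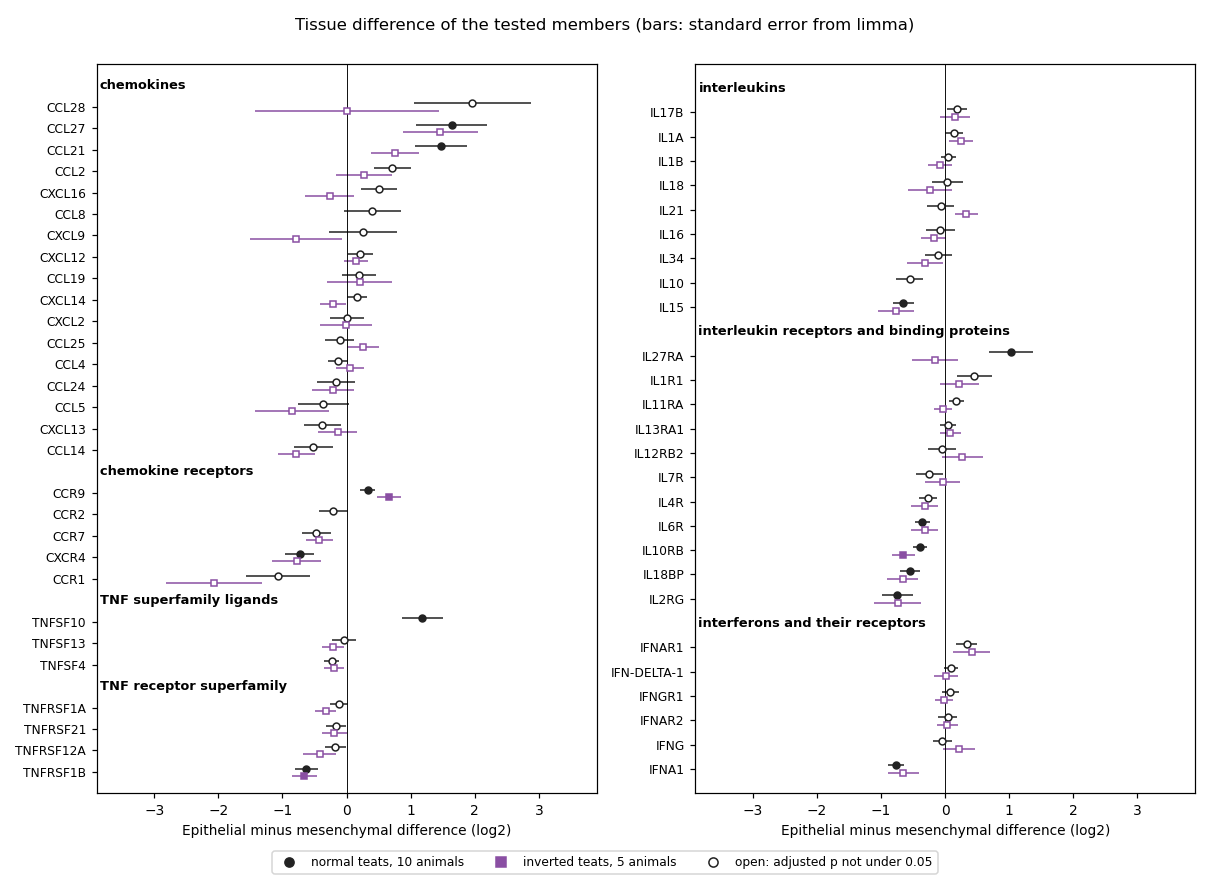
Epithelial minus mesenchymal log2 difference of each tested member in normal teats (black circles, 10 animals, 55 genes) and inverted teats (purple squares, 5 animals, 51 genes), with the standard error from limma; filled symbols have an adjusted p under 0.05. In normal teats 5 filled circles lie right of 0 and 8 left of it; in inverted teats 1 filled square lies right and 2 lie left.

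**Figure D3:**
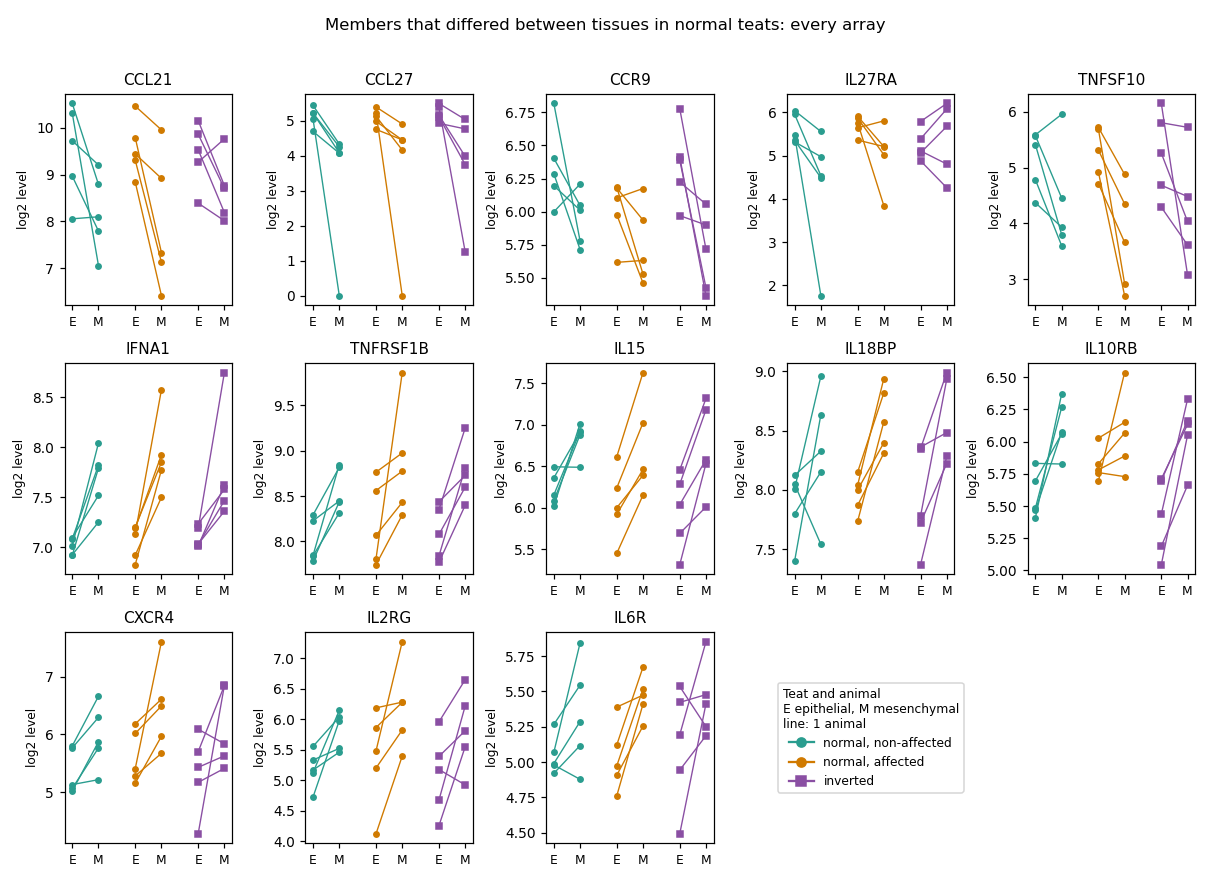
Every array's log2 level for the 13 members that differed between tissues in normal teats; each line joins the epithelial (E) and mesenchymal (M) piece of 1 teat type of 1 animal. For IFNA1 every line rises from E to M, and the 15 epithelial points end at 7.23 below the lowest mesenchymal point at 7.25.

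Among chemokines, CCL21 and CCL27 were higher in epithelial tissue and none of the 17 tested was lower. CCL21, the lymphatic ligand of CCR7, was at 8.05 to 10.52 (median 9.58) in the 10 epithelial pieces of normal teats and at 6.41 to 9.95 (median 7.94) in the mesenchymal pieces. The ranges overlapped, yet CCL21 was higher in the epithelial piece of 9 of 10 animals. The difference was 1.47 ± 0.41 (SE, n = 10 per tissue, limma adjusted p = 0.0101), and 2.21 ± 0.33 without the 4 animals whose mesenchymal pieces carried luminal genes (adjusted p = 0.000549).

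CCL27, a keratinocyte chemokine that attracts skin-homing T cells, was above background on all 15 epithelial arrays and on 3 of 15 mesenchymal arrays. Its epithelial levels in normal teats lay between 4.70 and 5.44. The mesenchymal values were 4.34, 4.07, 4.08, 0.00 and 4.26 in animals 950, 957, 1040, 1058 and 1109 and 4.45, 4.91, 4.46, 0.00 and 4.16 in animals 963, 964, 1037, 1059 and 1103. All 10 animals had the lower value in the mesenchymal piece, and 2 of those values were listed at 0. The difference was 1.64 ± 0.55 (SE, n = 10, limma adjusted p = 0.0282). With values below each array's 30th percentile raised to it, the difference was 0.44 ± 0.10 (adjusted p = 0.00277), and without animal 1059 it was 1.24 ± 0.45 (adjusted p = 0.0517).

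CCL28, a mucosal chemokine made by gland epithelium, did not pass the test but had the widest range of any chemokine over the 30 arrays. In mesenchymal pieces of normal teats it stood at 5.43, 7.09, 6.90 and 6.17 in animals 950, 957, 963 and 964, and at 0.75, 0.00, 0.84, 2.63, 2.42 and 0.00 in animals 1040, 1058, 1109, 1037, 1059 and 1103. The 4 high pieces are those with the 4 highest luminal means. The same held elsewhere: the epithelial inverted piece of animal 1103 and the mesenchymal inverted piece of animal 1037, which had the lowest luminal means of their groups, were listed at 0.00. Epithelial pieces of normal teats ran from 3.83 to 7.32. The tissue difference in normal teats was 1.96 ± 0.91 (SE, n = 10, limma adjusted p = 0.102), and 1.96 ± 0.66 with animal as a block (adjusted p = 0.0302); with values below the 30th percentile raised to it, it was 0.04 ± 0.40 (adjusted p = 0.944).

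CCL2, the monocyte chemokine, and CXCL16, which is made as a membrane-bound ligand of CXCR6, missed the threshold and passed it in some of the other fits. For CCL2 the epithelial levels ran from 7.08 to 9.17 and the mesenchymal levels from 6.19 to 8.26, a difference of 0.72 ± 0.28 (SE, n = 10, limma adjusted p = 0.0569; 0.0359 with animal as a block). Without animals 950, 957, 963 and 964 the CCL2 difference was 1.27 ± 0.33 (adjusted p = 0.00945). CXCL16 differed by 0.50 ± 0.28 (limma adjusted p = 0.165) and, without those 4 animals, by 0.85 ± 0.30 (adjusted p = 0.0418). With animal as a fixed term its adjusted p was 0.0372, and with animal as a random term CXCL16 did not pass. The remaining chemokines tested had adjusted p-values of 0.201 (CCL14) or more.

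**Figure D4:**
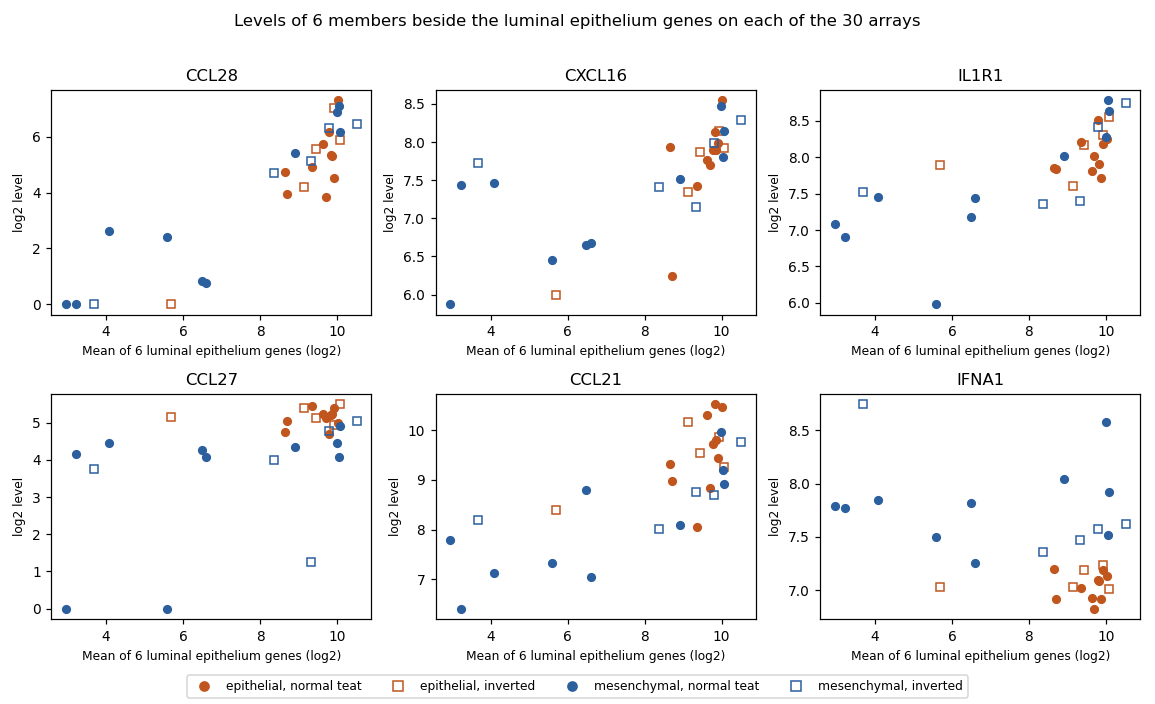
Log2 level of CCL28, CXCL16, IL1R1, CCL27, CCL21 and IFNA1 (vertical axes) beside the mean log2 level of 6 luminal epithelium genes (horizontal axes) on each of the 30 arrays; orange is epithelial, blue mesenchymal, open squares inverted teats. CCL28 is at 2.63 or below on all 8 arrays with a luminal mean under 7 and at 3.83 or above on the other 22, whereas every mesenchymal array has more IFNA1 than every epithelial array.

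Of the chemokine receptors, CXCR4 was lower and CCR9 slightly higher in epithelial tissue. CXCR4, the receptor of CXCL12, was at 5.02 to 6.18 (median 5.34) in epithelial and at 5.22 to 7.61 (median 6.13) in mesenchymal pieces of normal teats. It was lower in the epithelial piece of all 10 animals, by 0.73 ± 0.23 (SE, limma adjusted p = 0.0187). The highest value, 7.61, belonged to the mesenchymal piece of animal 1103, the one with the highest leukocyte mean, and without that animal the difference was -0.57 (adjusted p = 0.0508). CCR9 was at 5.62 to 6.82 in epithelial and 5.46 to 6.21 in mesenchymal pieces, a difference of 0.33 ± 0.12 (adjusted p = 0.0469) seen in 7 of 10 animals. This call was lost when animal 950, 963, 1040, 1058, 1059, 1103 or 1109 was left out.

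CCR7 differed by -0.48 ± 0.23 (limma adjusted p = 0.109; 0.0374 with animal as a block) and was lower in epithelial tissue by 0.71 ± 0.17 without the 4 animals named above (adjusted p = 0.00614). CCR1, a receptor of monocytes and neutrophils, differed by -1.07 with a standard error of 0.50 (adjusted p = 0.104). Its mesenchymal values ran from 3.24 to 7.31, the highest again in animal 1103.

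IL15, which supports natural killer and memory T cells, was the 1 of 9 interleukins tested that differed in this fit. Its epithelial levels in normal teats were 5.45 to 6.61 (median 6.12) and its mesenchymal levels 6.15 to 7.63 (median 6.89). It was lower in the epithelial piece of 9 of 10 animals, and equal to 2 decimals, at 6.49, in both pieces of animal 1058. The difference was -0.65 ± 0.17 (SE, n = 10, limma adjusted p = 0.00625) and passed in every alternative fit. IL10, a cytokine that restrains inflammation, differed by -0.55 ± 0.21 (adjusted p = 0.0503); it passed with animal as a random term (adjusted p = 0.0243), after quantile normalization (0.0477), with low values raised to the 30th percentile (0.0494) and without animal 1058 (0.0208), and not with animal as a fixed term (0.0569). IL1B differed by 0.05 (adjusted p = 0.771).

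Among interleukin receptors and binding proteins, IL18BP, IL10RB, IL2RG and IL6R were lower and IL27RA higher in epithelial tissue. IL18BP lay at 7.40 to 8.15 in epithelial pieces and at 7.54 to 8.96 in mesenchymal pieces, a difference of -0.55 ± 0.15 (SE, n = 10, limma adjusted p = 0.00956) seen in 9 of 10 animals. Without animals 950, 957, 963 and 964 it was -0.38 ± 0.21 (adjusted p = 0.163), and after quantile normalization -0.40 (adjusted p = 0.0561). IL10RB, the shared chain of the receptors for IL10, IL22 and lambda interferons, lay at 5.41 to 6.03 in epithelial pieces, at 5.73 to 6.53 in mesenchymal pieces, and differed by -0.40 ± 0.11 (adjusted p = 0.0102), a call that held in every alternative fit.

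IL2RG, the common gamma chain that IL2, IL4, IL7, IL15 and IL21 receptors share, was at 4.12 to 6.19 in epithelial and 5.40 to 7.27 in mesenchymal pieces of normal teats. Every one of the 10 animals had the lower value in the epithelial piece, and the difference was -0.74 ± 0.24 (SE, limma adjusted p = 0.0204). Its highest value, 7.27, was again in the mesenchymal piece of animal 1103, and the difference without that animal was -0.63 ± 0.23 (adjusted p = 0.0473); without animal 1109 the adjusted p was 0.0511 and without the 4 animals with luminal genes 0.0502. IL6R differed by -0.36 ± 0.12 (adjusted p = 0.0228) in 9 of 10 animals; without animal 1103 its adjusted p was 0.0570 and without animal 1059 it was 0.0601.

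IL27RA, a receptor chain for IL27, was above background on all 15 epithelial and 10 of 15 mesenchymal arrays. The epithelial values in normal teats were held between 5.32 and 6.04, while the mesenchymal values were 4.98, 5.56, 1.76, 4.49 and 4.54 in animals 950, 957, 1040, 1058 and 1109 and 5.02, 5.21, 5.21, 3.84 and 5.81 in animals 963, 964, 1037, 1059 and 1103. It was higher in the epithelial piece of 9 of 10 animals, by 1.03 ± 0.35 (SE, limma adjusted p = 0.0275). With values below the 30th percentile raised to it, the difference was 0.66 ± 0.16 (adjusted p = 0.00381), and it was 0.93 ± 0.36 without animal 1059 (adjusted p = 0.0687) and 0.98 ± 0.38 without animal 1109 (adjusted p = 0.0630).

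IL1R1 is the signalling receptor of IL1A and IL1B. Mesenchymal pieces of normal teats held 8.02, 8.79, 8.27 and 8.63 in animals 950, 957, 963 and 964, above the 5.98 to 7.46 of the other 6 animals. The same 4 animals were also highest in epithelial pieces of normal teats, at 8.21, 8.51, 8.25 and 8.19 against 7.72 to 8.02 in the other 6. The 4 high mesenchymal pieces are again those with luminal genes. In inverted teats, however, the mesenchymal pieces of animals 1059 and 1103, with luminal means of 9.32 and 8.37, held only 7.40 and 7.35. Whether the level followed the luminal content of the pieces or the animals was not tested. The difference over all 10 animals was 0.45 ± 0.27 (limma adjusted p = 0.203), and without those 4 animals it was 0.85 ± 0.22 (adjusted p = 0.00846). Its other probe set correlated with the chosen one at r = 0.18 over the 30 arrays and differed by -0.11 in normal teats (adjusted p = 0.371). IL18 (0.49 ± 0.16, adjusted p = 0.0255) and IFNAR1 (0.63 ± 0.14, adjusted p = 0.00448) likewise passed only after the 4 animals were left out, among the fits with the deposited scaling; with all animals their differences were 0.03 ± 0.25 and 0.34 ± 0.17. After quantile normalization IFNAR1 differed by 0.41 (adjusted p = 0.0337) over all 10 animals. This fit without the 4 animals was chosen after seeing the data.

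TNFSF10, the death receptor ligand TRAIL, was the 1 of 3 TNF superfamily ligands tested that differed. TNFSF4 differed by -0.23 ± 0.11 (limma adjusted p = 0.112; 0.0493 with animal as a random term and 0.0766 as a fixed term). TNFSF10 was above background on 12 of 15 epithelial and 3 of 15 mesenchymal arrays. Its epithelial values in normal teats were 5.59, 4.78, 4.37, 5.57 and 5.41 in animals 950, 957, 1040, 1058 and 1109 and 4.72, 5.72, 5.32, 4.92 and 5.70 in animals 963, 964, 1037, 1059 and 1103. In mesenchymal pieces of the same animals it stood at 5.96, 3.60, 3.93, 4.46 and 3.80 and at 3.66, 4.88, 4.35, 2.71 and 2.92. It was higher in the epithelial piece of 9 of 10 animals, the exception being animal 950. The difference was 1.18 ± 0.32 (SE, n = 10, limma adjusted p = 0.00781). Much of it lay below background: with values below the 30th percentile raised to it, the difference was 0.47 ± 0.18 (adjusted p = 0.0569).

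Of the TNF receptors, TNFRSF1B, the receptor found mainly on leukocytes and endothelium, was lower in epithelial tissue, and the widely expressed TNFRSF1A, TNFRSF21 and TNFRSF12A did not pass. TNFRSF1B was at 7.74 to 8.76 (median 7.96) in epithelial and at 8.29 to 9.86 (median 8.61) in mesenchymal pieces of normal teats, with the highest value in animal 1103. All 10 animals had less in the epithelial piece. The difference was -0.63 ± 0.18 (SE, limma adjusted p = 0.0115), and -0.47 ± 0.15 without animal 1103 (adjusted p = 0.0297). Over all 30 arrays TNFRSF1A ran from 8.09 to 9.39, TNFRSF21 from 7.85 to 9.12 and TNFRSF12A from 6.80 to 8.73.

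IFNA1, a type I interferon gene, had the smallest p-value of all members in the tissue comparison. Epithelial pieces held 7.02, 7.10, 6.93, 6.92 and 7.09 in animals 950, 957, 1040, 1058 and 1109 and 7.14, 7.19, 7.20, 6.92 and 6.83 in normal teats of animals 963, 964, 1037, 1059 and 1103. The mesenchymal pieces of the same teats held 8.04, 7.52, 7.25, 7.79 and 7.82 and 8.57, 7.92, 7.85, 7.50 and 7.77. The 2 sets of values did not overlap, and the epithelial values were the more even, with an SD of 0.13 against 0.36. The difference was -0.77 ± 0.13 (SE, n = 10, limma adjusted p = 0.000177), and it lay between -0.82 and -0.67 in all 17 alternative fits, each with an adjusted p of 0.00264 or less. IFNA1 was lower in the epithelial piece also in animals 950, 957, 963 and 964, whose mesenchymal pieces carried luminal genes. Without these 4 the difference was -0.68 ± 0.14. Their mesenchymal pieces still held adipocyte means of 9.94 to 10.73 and skeletal muscle means of 9.55 to 11.68. The part of tissue content in the IFNA1 difference was not tested. STAT5B, described with the signalling genes further on, had the same pattern of non-overlapping values.

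In inverted teats, 3 members differed between the tissues of the 5 affected animals: CCR9 was higher and IL10RB and TNFRSF1B were lower in epithelial tissue, each in the direction found in normal teats of an overlapping set of animals. They were 5.88% of the 51 members tested, beside 12.4% of all 17108 probe sets. The tissue label was less marked here. None of 6 luminal genes (median difference 0.53) and 9 skeletal muscle genes (-3.23) passed by limma, while 6 of 6 adipocyte genes were lower (-2.27). The genes of all leukocytes and of macrophages and dendritic cells had medians of -0.53 and -0.57, with 0 called. The part of cell content in the 3 member calls was not tested. CCR9 held 6.22, 6.78, 6.41, 6.39 and 5.97 in the epithelial pieces of animals 963, 964, 1037, 1059 and 1103 and 6.06, 5.72, 5.37, 5.43 and 5.90 in the mesenchymal pieces. The difference was 0.66 ± 0.19 (SE, n = 5, limma adjusted p = 0.0450), higher in 5 of 5 animals. With animal as a fixed term the adjusted p of CCR9 was 0.0655, and with animal as a random term CCR9 still passed. IL10RB held 5.19, 5.04, 5.71, 5.70 and 5.44 in the epithelial and 5.66, 6.05, 6.13, 6.16 and 6.33 in the mesenchymal pieces. Its difference was -0.65 ± 0.18 (adjusted p = 0.0403), lower in 5 of 5 animals. TNFRSF1B held 8.44, 7.77, 8.35, 8.08 and 7.84 against 8.73, 8.40, 9.25, 8.60 and 8.81, a difference of -0.66 ± 0.20 (adjusted p = 0.0489). The epithelial and mesenchymal values of each of the 3 genes overlapped by a small margin.

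These 3 calls were near the limit of the comparison. None remained when any 1 of the 5 animals was left out, without animals 963 and 964, after quantile normalization or with no filter on low values, and 1 (CCR9) remained without the epithelial array of animal 1103. The share of all probe sets called moved as well, from 12.4% to 0.0117% after quantile normalization and to 4.54% with no filter. It was 0.00602% to 9.0% with 1 animal left out. With animal as a block the count was 5 as a fixed term, adding IL15 (-0.77 ± 0.16, adjusted p = 0.0294), IL18BP (-0.67 ± 0.17, adjusted p = 0.0466) and CCL5 (-0.85 ± 0.22, adjusted p = 0.0445) and losing CCR9, and 7 as a random term. Of all probe sets, 14.6% and 21.5% were called in these fits. IFNA1 in inverted teats held 7.23, 7.01, 7.19, 7.03 and 7.03 in epithelial and 7.58, 7.62, 8.74, 7.47 and 7.36 in mesenchymal pieces. The values did not overlap there either, and the difference was -0.66 ± 0.24 (adjusted p = 0.0968; 0.0465 with animal as a random term).

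The question the groups pose most directly is whether inverted teats differ from normal teats of the same animals. No member passed in either tissue by limma (adjusted p under 0.05), as no probe set at all did: 0.0% of 17661 in epithelial and 0.0% of 17839 in mesenchymal tissue. At an unadjusted p under 0.05 there were 3 of 53 members and 303 probe sets in epithelial tissue, and 0 of 53 members and 78 probe sets in mesenchymal tissue. With animal as a fixed block these became 7 members and 728 probe sets, and 1 member and 540 probe sets, none with an adjusted p under 0.05.

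The 3 members in epithelial tissue were IL10RB, IL27RA and CCL4. IL10RB held 5.83, 5.76, 6.03, 5.78 and 5.69 in normal teats of animals 963, 964, 1037, 1059 and 1103, and every one of these animals had a lower value in the inverted teat, as listed above. The difference was -0.40 ± 0.15 (SE, n = 5, limma adjusted p = 0.9997, as for the other members in this comparison). For IL27RA the normal teats held 5.87, 5.36, 5.91, 5.77 and 5.65 and the inverted teats 5.06, 5.39, 5.79, 4.88 and 5.11. It differed by -0.47 ± 0.19, with 4 of 5 animals lower in the inverted teat. CCL4, a chemokine with near-identical relatives, held 5.47, 5.25, 5.28, 5.51 and 5.10 in normal and 5.59, 5.84, 5.96, 5.59 and 5.24 in inverted teats. It differed by 0.32 ± 0.14, higher in 5 of 5 animals.

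CXCL9, an interferon-induced chemokine, had the largest difference between the teats in epithelial tissue among the 53 members tested, at -0.95 with a standard error of 0.70. Its normal teats held 8.76, 6.13, 8.56, 6.57 and 6.56 and its inverted teats 7.83, 5.57, 8.36, 5.37 and 4.68 in animals 963, 964, 1037, 1059 and 1103. All 5 animals had less in the inverted teat, while the 5 animals ranged from 6.13 to 8.76 in normal teats; with animal as a fixed block the standard error was 0.23 and the limma adjusted p 0.901. The piece of animal 1103 with the lowest value is the one whose luminal mean was 5.69, and leukocyte means in the inverted epithelial pieces were 7.14, 6.18, 7.23, 6.38 and 6.21 against 7.45, 6.18, 7.24, 6.53 and 6.76 in the normal ones. The part of either in this difference was not tested.

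In mesenchymal tissue the members with the smallest p-values were IL10 (-0.44 ± 0.26) and CCL25 (-0.53 ± 0.37) below and CCL21 (0.74 ± 0.59) and IL1B (0.19 ± 0.15) above normal teats, each with a limma adjusted p of 0.9999. The differences between inverted and normal teats lay between -0.95 and 0.46 over 53 members in epithelial tissue and between -0.53 and 0.90 over as many in mesenchymal tissue; 49 and 50 of them were smaller than 0.5 in size. Standard errors had a median of 0.21 in epithelial and 0.30 in mesenchymal tissue in this fit, which held no animal term. A difference of that order in a single gene was therefore not detectable by this fit with 5 animals.

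Normal teats of affected animals were set against normal teats of non-affected animals to ask whether affected animals differ where the teat looks normal. No member passed by limma in epithelial (0.0% of 17661 probe sets called) or mesenchymal tissue (0.0% of 17839), and 0 of 53 members in each had an unadjusted p under 0.05, beside 420 and 201 probe sets. In epithelial tissue the smallest p-values belonged to CCR9 (-0.33 ± 0.18) and its ligand CCL25 (-0.35 ± 0.19), whose means were lower in affected animals, and to TNFRSF21 (0.24 ± 0.14) and IL10RB (0.24 ± 0.15), each with a limma adjusted p of 0.9995. In mesenchymal tissue they were CXCL16 (0.69 ± 0.40), IL16 (0.48 ± 0.31), IL1A (0.27 ± 0.18) and TNFRSF1A (0.31 ± 0.21), with means above those of non-affected animals, followed by IFNGR1 (-0.27 ± 0.20) below them. The IL16 difference held 7.15 from animal 1103, against 5.27 to 5.77 in the other 4 affected animals.

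Inverted teats set against normal teats of non-affected animals gave the same counts: 0 members passed in epithelial (0.0% of 17661 called) and mesenchymal tissue (0.0% of 17839), with 0 members in each and 484 and 219 probe sets at an unadjusted p under 0.05. By the size of the p-value IL27RA (-0.38 ± 0.19), TNFRSF12A (0.30 ± 0.16) and IL12RB2 (0.49 ± 0.28) came first in epithelial tissue. TNFRSF1A (0.44 ± 0.21) and CXCL16 (0.81 ± 0.40) came first in mesenchymal tissue. The CXCL16 difference there stood beside luminal means of 3.68 to 10.51 in the inverted and 2.96 to 10.05 in the non-affected mesenchymal pieces, whose part in it was not tested.

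The difference between the tissues in the inverted against normal teat difference was tested over all 30 arrays. No member of 55 passed by limma, as none of 18783 probe sets did (0.0%), with 0 members and 171 probe sets at an unadjusted p under 0.05. IL10RB came first, at -0.40 ± 0.23: its teat difference was -0.40 in epithelial and -0.01 in mesenchymal tissue, and 5 of 5 animals had the lower one in epithelial tissue. CCR9 followed, at 0.40 ± 0.26.

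The spread between animals was described apart from the groups. In the 20 arrays of the 5 affected animals, the share of the variance left after the 4 group means that lay between animals was computed for the 37 members above background on all 20; it would average 25% without differences between animals. The median was 47.9% over these members and 43.7% over all 12985 probe sets of that kind, and 18 of 37 members (48.6%) reached 50%, beside 38.9% of all. CXCL9 (90.6%), IL15 (79.1%), CCL24 (74.8%), IL1R1 (70.9%) and CCL19 (66.1%) had the highest shares, and IFNAR2 (4.84%), IL17B (6.82%) and IL11RA (11.7%) the lowest. These shares describe 5 animals and carry no test.

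CXCL9 stood at 8.36 to 8.74 on the 4 arrays of animal 1037 and at 7.43 to 8.76 on those of animal 963, and at 4.68 to 6.62 on all 12 arrays of animals 964, 1059 and 1103. The 2 sets of arrays did not overlap, whatever the tissue or teat. The highest value of all 30, 9.56, was that of the mesenchymal piece of animal 950. CCL5, which recruits T cells and monocytes, was at 6.72 to 7.63 in animals 1037 and 963 and at 4.45 to 5.22 in animal 1059, which was lowest among the affected animals on every kind of piece. CCL24, an eosinophil chemokine, was at 9.57 to 9.78 in animal 1037 and at 8.01 to 8.47 in animal 1059. CCL19 was at 8.97 to 9.43 in animal 1037 and at 7.13 to 7.65 in animal 964. Leukocyte means were 7.0 to 7.47 on the 8 arrays of animals 1037 and 963 and 6.18 to 6.89 on the 8 of animals 964 and 1059. Animal 1103 went against this order: its leukocyte means were 6.76 and 6.21 in epithelial and 8.52 and 7.42 in mesenchymal pieces (normal and inverted teat), while CXCL9 in those mesenchymal pieces was only 5.11 and 6.62. The part of leukocyte content in these levels was not tested.

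**Figure D5:**
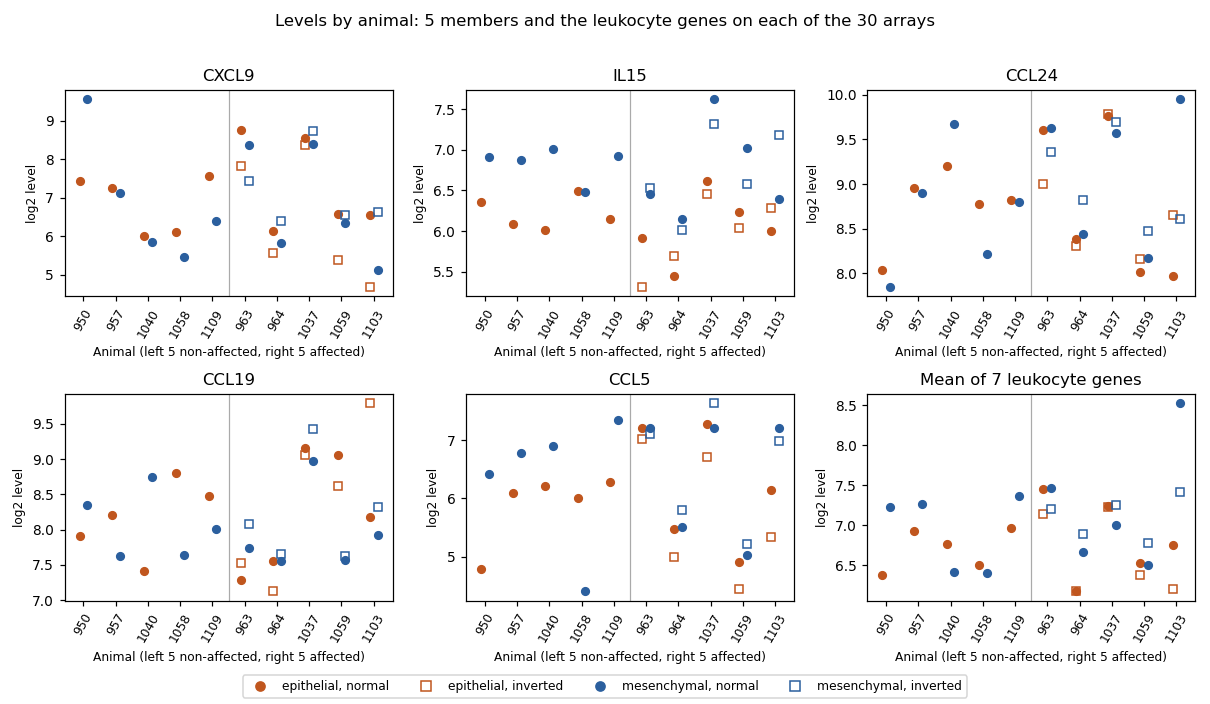
Log2 level of CXCL9, IL15, CCL24, CCL19 and CCL5 and the mean of 7 leukocyte genes for each animal on its 2 (non-affected) or 4 (affected) arrays; orange is epithelial, blue mesenchymal, open squares inverted teats. CXCL9 in animals 963 and 1037 lies at 7.43 or higher on all 8 arrays, above all 12 arrays of the other 3 affected animals.

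Of the 73 members, 11 had their highest value of all 30 arrays in the mesenchymal piece of the normal teat of animal 1103. They were CCR1 (7.31), CXCR4 (7.61), IL2RG (7.27), TNFRSF1B (9.86), IL16 (7.15), CCL14 (10.67), CCL24 (9.95), IL10RB (6.53), IL34 (8.22), IL6 (5.18) and IL7R (6.0). Each of the other 29 arrays held the highest value of 0 to 7 members. How many of all probe sets peaked on this array was not counted, so the 11 describe the array and are not a result about the members. CXCL9, at 5.11, was low in the same piece, as were T and NK cell genes, with a mean of 4.56 against 4.64 to 5.33 in the other mesenchymal pieces of normal teats. Its macrophage and dendritic cell mean, 8.97, was the highest of all arrays.

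Genes that act with the members were drawn from 3 lists. Of 53 other cytokines and receptors outside the symbol rule, 18 were on the array, 10 were tested in normal teats and 1 differed between tissues: LTA, a TNF superfamily ligand, was lower in epithelial tissue by 0.78 ± 0.28 (SE, limma adjusted p = 0.0395). All probe sets were called at 33.5%. The median difference of the list was 0.09, beside -0.06 for all probe sets. In inverted teats LTA did not pass and CCRL2, an atypical chemokine receptor, was lower in epithelial tissue by 0.81 ± 0.22 (adjusted p = 0.0374). Both genes were weak: LTA was above background on 16 of the 30 arrays and CCRL2 on 11. The epithelial group means behind both calls lay below 4.49, the lowest 30th percentile of any array. Part of each difference therefore lay below background, and no fit with low values raised to the percentile is given for them.

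Of 25 JAK-STAT genes, 16 were measured and 15 tested, and 2 were higher and 3 lower in epithelial tissue of normal teats. With 33.5% of all probe sets called, 5 of 15 is a share near that of the array. JAK2, the kinase of many cytokine receptors, was higher by 0.91 ± 0.21 (limma adjusted p = 0.00267) in 10 of 10 animals and PIAS1 in 9 of 10 animals by 0.86 ± 0.19. STAT5B was lower by 0.93 ± 0.16 in 10 of 10 animals with no overlap of the values, STAT5A by 0.52 ± 0.13 and STAT3 by 0.23 ± 0.08. In inverted teats JAK2 was again higher (0.89 ± 0.22) and STAT5B again lower (-0.86 ± 0.16), each in 5 of 5 animals.

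Of 35 genes of TNF, IL-1 and NF-kB signalling, 14 were measured and 11 tested, and 4 differed, all lower in epithelial tissue of normal teats. They were MYD88 (-0.49 ± 0.16), IRAK1 (-0.45 ± 0.10), TRAF6 (-0.50 ± 0.14) and TOLLIP (-0.54 ± 0.16), with limma adjusted p-values of 0.0235, 0.00218, 0.0107 and 0.0147. IRAK1 and TOLLIP were lower in 10 of 10 animals and were lower again in inverted teats, by 0.53 ± 0.13 and 0.67 ± 0.15, together with NFKBIB, an inhibitor of NF-kB (-0.71 ± 0.18, adjusted p = 0.0279). The median difference of the list was -0.31, and 4 of 11 (beside 33.5% of all probe sets) is a share near that of the array. MAP3K7 (0.39 ± 0.16, adjusted p = 0.0645) and TAB1 (0.07 ± 0.15, adjusted p = 0.750) of the same list differed in the other direction without passing. None of the genes of the 3 lists passed in any comparison of teats or of affected with non-affected animals.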

How the data were processed

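Total RNA of 30 teat tissue pieces was hybridised to 1 array each, with 500 ng per sample per the labels. The deposited values are one log2-scale level per probe set and array; base 2 was taken from their spread, and how the authors normalized between arrays is not given in the sources used here. The submitters' processing notes name GCOS 1.1.1 and PLIER without their roles. Between 354 and 752 probe sets per array are listed at 0, and the array medians lie between 5.71 and 6.04. Precision is limited by how many arrays there were.

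Of 24123 probe sets, 124 controls were left out; 10069 of the other 23999 had 1 gene symbol, 198 several and 13732 none. All 73 members matched a RefSeq symbol. Probe sets above the 30th percentile of their array on at least 5 arrays of a fit were tested in R 4.3.3 with the package limma, version 3.58.1 (a linear model with moderated variances), with Benjamini-Hochberg adjustment over all of them and a threshold of 0.05. Tissues were compared over 20 normal-teat arrays, adjusting for whether the animal was affected, and over 10 inverted-teat arrays; comparisons between teats or animals used the 15 arrays of a tissue, and the interaction all 30. The fits were tested on simulated data. Figures were drawn with matplotlib 3.10.9 in Python 3.11.15.

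Arrays of the same animal are paired by the animal numbers in the labels. Over 12566 probe sets, the deviations from the group means of 25 such pairs correlated at -0.043 to 0.745. In 17 of the 25 an array correlated best with its own animal. Pairs of a normal with an inverted teat correlated at 0.284 to 0.689 in epithelial tissue, with 5 of 5 best with their own animal. In mesenchymal tissue they correlated at 0.302 to 0.744, with 4 of 5 best. The main fits held no animal term; the block was an alternative, beside no filter, quantile normalization, raising low values to the percentile, averaging a gene's probe sets and leaving out each animal.

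Members named with values in each group were, by rule, those past the threshold (at most 10 per direction), the 2 per direction with the smallest p where fewer than 2 passed, the 3 with the highest mean in each class, and TNF, IL6, IL1B, CXCL8, CCL2, CXCL12 and IFNG. Other members given with values, such as CCL28, CCL5, CXCL9, CCL19, CCL24, IL18 and IFNAR1, were named after their values were seen. The members and gene lists were chosen with earlier results of these data known.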

Additional observations from a re-analysis of the deposited data

Results flagged for a closer look

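For the 40 genes named by rule, each group of 5 arrays was searched for a value far from the other 4 (a gap over 0.71 of the group's range, Dixon's limit). Of 240 sets 17 held one, where chance gives about 1 in 20, or 12.

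Animal 1037 had 3 of them: CCL25 stood at 7.56 in its mesenchymal normal teat (others 5.56 to 5.83), IFNA1 at 8.74 in its mesenchymal inverted teat (others 7.36 to 7.62) and IL11RA at 8.25 in its mesenchymal normal teat (others 8.65 to 8.79). Animal 957 had 3 in its epithelial piece: TNF was low at 3.53 (others 4.01 to 4.19), TNFRSF21 high at 8.56 (others 8.16 to 8.19) and TNFSF13 high at 7.23 (others 6.50 to 6.62).

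Animal 1058 had 3. CCL27 was listed at 0.00 in its mesenchymal piece (others 4.07 to 4.34), IL15 there stood at 6.49 (others 6.88 to 7.01), and IL17B in its epithelial piece at 6.48 (others 6.97 to 7.15). CCL27 was also listed at 0.00 in the mesenchymal normal teat of animal 1059 (others 4.16 to 4.91).

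Animal 964 had 3. CCR7 was low at 4.58 in its mesenchymal inverted teat (others 5.32 to 5.48), CXCL12 at 8.87 in its epithelial inverted teat (others 9.34 to 9.44) and IL10 at 3.16 in its epithelial normal teat (others 4.74 to 4.92). IL10 was also low, at 2.94, in the epithelial inverted teat of animal 1103 (others 4.66 to 4.90), the piece with the low luminal mean. IL16 stood at 7.15 in the mesenchymal normal teat of animal 1103 (others 5.27 to 5.77), the piece with the highest leukocyte mean.

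CCR7 was low at 3.22 in the mesenchymal piece of animal 950 (others 4.92 to 5.60). IL27RA was low at 1.76 in the mesenchymal piece of animal 1040 (others 4.49 to 5.56).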

How the results depend on the processing

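The 13 calls between tissues in normal teats became 14 to 18 under the alternatives over all animals and 9 to 15 when 1 animal was left out, and 11 of the 13 remained among 17 without animals 950, 957, 963 and 964. Of all probe sets, 33.5% were called in the main fit and 24.0% to 44.4% under the alternatives over all animals. The share was 24.3% to 37.2% with 1 animal left out and 37.5% without animals 950, 957, 963 and 964. The 3 calls in inverted teats became 0 with no filter, 0 after quantile normalization, 2 with the mean of a gene's probe sets, 4 with low values raised to the percentile, 0 (lowest) to 0 (highest) with 1 animal left out, 1 without the epithelial array of animal 1103 and 0 without animals 963 and 964. The shares of all probe sets called in these fits were, in the same order, 4.54%, 0.0117%, 11.5%, 13.5%, 0.00602% to 9.0%, 8.0% and 10.6%. In the main fit the share was 12.4%. Under a replicate block (animal) the 3 calls became 5 (fixed term, 14.6% of all probe sets called) and 7 (random term, 21.5%). The cause of these changes was not tested. The other 7 comparisons gave 0 members in every alternative, the replicate block included. A named gene's values under an alternative were counted only in comparisons where the rule picked it by its main-fit p-value. Of these, 673 kept their side of the threshold and 47 passed only in the main fit, with the same direction. Passes gained elsewhere lie outside this count, such as those of CCL2, CCR7, CXCL16 and IL10 in normal teats and IL15 in inverted teats. Within the count, direction was compared only where a value passed in the main or the alternative fit, and there 0 reversed. Leaving out animals 950, 957, 963 and 964, or 963 and 964, was chosen after seeing the data. With 5 arrays per group, single-gene differences near the standard errors were not detectable.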
